A study of Mus musculus with 10 samples.

Results

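GABA-A receptor subunits were followed across 10 mouse meningioma-like tumors. The 7 genes described most closely are GABRA2, GABRA3, GABRA4, GABRA5, GABRB1, GABRB2 and GABRG1, out of 16895 genes listed, and they were matched by symbol. GABRA3 and GABRB2 were chosen by their measured levels, for a pattern over constructs or regions in these same libraries, so their levels are a description and carry no test. The other 5 were added as members of the same receptor family, and other genes of the family are given beside them, which makes 16 subunit genes reported here. Of the 7 genes, 4 passed the filter on low values (GABRA3, GABRA5, GABRB2 and GABRG1), and 8 of the 16 did.

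The tumors came from Cdkn2a null mice that carry the avian virus receptor tv-a under Nestin control. Chicken DF1 cells producing an RCAS virus had been placed in the subarachnoid space at postnatal day 0 to 3, and the labels do not give the age at collection. The virus encoded YAP1-MAML2-v2 (n = 7), a fusion of the Hippo effector YAP1 with the Notch coactivator MAML2, or NLS-2SA-YAP1 (n = 3), called constitutively active YAP1 in the series title. All groups share the Cdkn2a loss and the tv-a transgene, and the Nestin promoter limits infection to cells that use it. By source region, 6 tumors were extra cranial (replicates 1, 3, 4 and 5 of YAP1-MAML2-v2, replicates 2 and 3 of NLS-2SA-YAP1). A further 3 were extra axial (replicates 2 and 6 of YAP1-MAML2-v2, replicate 1 of NLS-2SA-YAP1), and replicate 7 of YAP1-MAML2-v2 alone was intra ventricular. The names of the deposited data of YAP1-MAML2-v2 replicates 6 and 7 share a number whose meaning the labels do not give. No normal tissue was analysed here. Each tumor is labelled a separate replicate. Whether each came from its own mouse is not stated, so p-values measure the spread between these samples.

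GABA-A receptors are chloride channels opened by the neurotransmitter GABA, and they carry most fast inhibition in the brain. Each channel is a ring of subunits, usually built from alpha and beta subunits with a gamma or delta subunit. The epsilon (GABRE), theta (GABRQ) and pi (GABRP) subunits can take part in less common receptors, and the rho subunits (GABRR1 to GABRR3) form channels of their own. Most of the genes lie in clusters that hold an alpha, a beta and a gamma type gene, and the X chromosome cluster holds Gabre, Gabra3 and Gabrq.

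The X chromosome cluster holds GABRA3, which was picked for its pattern, and in all 3 of the 4 subunits with a fold below. The bases upstream of the cluster's genes are shown, as RefSeq gives them for GRCm38.p6 in the reference used here. The stretch for Gabra3 is chrX:72656920-72657169 on the minus strand, that for Gabre is chrX:72274804-72274971 on the minus strand, and that for Gabrq is chrX:72824928-72825177 on the plus strand. Each ends just before a transcription start or, for Gabre, before the first annotated exon. Capitals mark any match, on either strand, to GGAATG (the core of the TEAD motif, TEAD being the factor through which YAP1 binds DNA), TGGGAA (the core of the RBPJ motif, through which MAML2 acts) or TGANTCA (AP-1). The motifs were chosen with the sequences in view.

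Gabra3: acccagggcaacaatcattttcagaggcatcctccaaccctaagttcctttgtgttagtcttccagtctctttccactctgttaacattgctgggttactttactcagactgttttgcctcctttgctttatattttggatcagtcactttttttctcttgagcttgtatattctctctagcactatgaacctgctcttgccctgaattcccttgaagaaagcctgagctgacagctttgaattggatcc
Gabre: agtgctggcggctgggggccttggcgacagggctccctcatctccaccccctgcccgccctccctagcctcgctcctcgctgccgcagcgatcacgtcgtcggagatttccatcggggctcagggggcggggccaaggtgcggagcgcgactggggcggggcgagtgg
Gabrq: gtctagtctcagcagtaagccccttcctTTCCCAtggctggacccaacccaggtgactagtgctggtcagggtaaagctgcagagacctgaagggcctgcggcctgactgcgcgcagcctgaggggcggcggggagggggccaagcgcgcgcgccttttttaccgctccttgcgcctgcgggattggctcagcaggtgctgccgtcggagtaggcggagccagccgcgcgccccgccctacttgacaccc

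The only capitals are a reversed TGGGAA in Gabrq. RefSeq gives Gabra3 a further start at position 72656807, and its 300-base window, 250 bases before to 50 after that start, held 2 copies of GGAATG. The first began 57 bases upstream of the start and the second 6 bases downstream of it. The 30 bases around each lie at chrX:72656847-72656876 and chrX:72656784-72656813, minus strand.

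Gabra3 first match: tttcttcttagtGGAATGtgaatgacaact
Gabra3 second match: atccttggagatGGAATGtgagtagacaag

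At least 1 copy of GGAATG was present in 14.7% of the 32851 promoter windows in the reference, and 2 or more in 1.36%. TGGGAA was present in 25.6% and TGANTCA in 7.81%. Gabrb2, the other subunit picked for its pattern, has windows at 3 starts, of which 1 held a match to GGAATG and 2 a match to TGGGAA. A match is a description of the letters and not a binding site.

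Deposited values summed to between 28001143 (NLS-2SA-YAP1 replicate 2) and 44544314 (YAP1-MAML2-v2 replicate 7) per library. These totals add up numbers that do not behave like raw counts, and sequencing depth is therefore unknown. In every library, genes at 1 outnumber genes at 2 by a factor of 4.54 to 6.82, and 1662 genes combine a 0 or 1 with a value over 100 elsewhere. Among the 70 values of the 7 genes, 37 were 0 or 1, 11 were 2 to 10 and 22 were above 10. A fold against a value of 0 or 1 therefore has no clear size. CPM below is the usual counts-per-million scale, here the deposited value over the TMM-scaled library total, and a log2 fold change is given only for subunits with at most 3 libraries at 0 or 1 (GABRA3, GABRE, GABRQ and GABRR2). In whole tumors, fewer cells of a type and less RNA per cell cannot be told apart.

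Per exon length, GABRE had the highest level of the 16 subunits reported here in 9 of the 10 libraries. It made up 42.7% (replicate 3) to 96.2% (replicate 2) of their summed CPM per kb in the first 6 YAP1-MAML2-v2 replicates. In the NLS-2SA-YAP1 tumors it made up 62.0%, 81.9% and 88.0%, in replicate order. In the intra ventricular YAP1-MAML2-v2 replicate 7 GABRB2 led with 89.7%, at 78.1 CPM per kb. GABRA6, an alpha subunit known from cerebellar granule neurons, and GABRR3 were listed at 0 in every library.

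**Figure D1:**
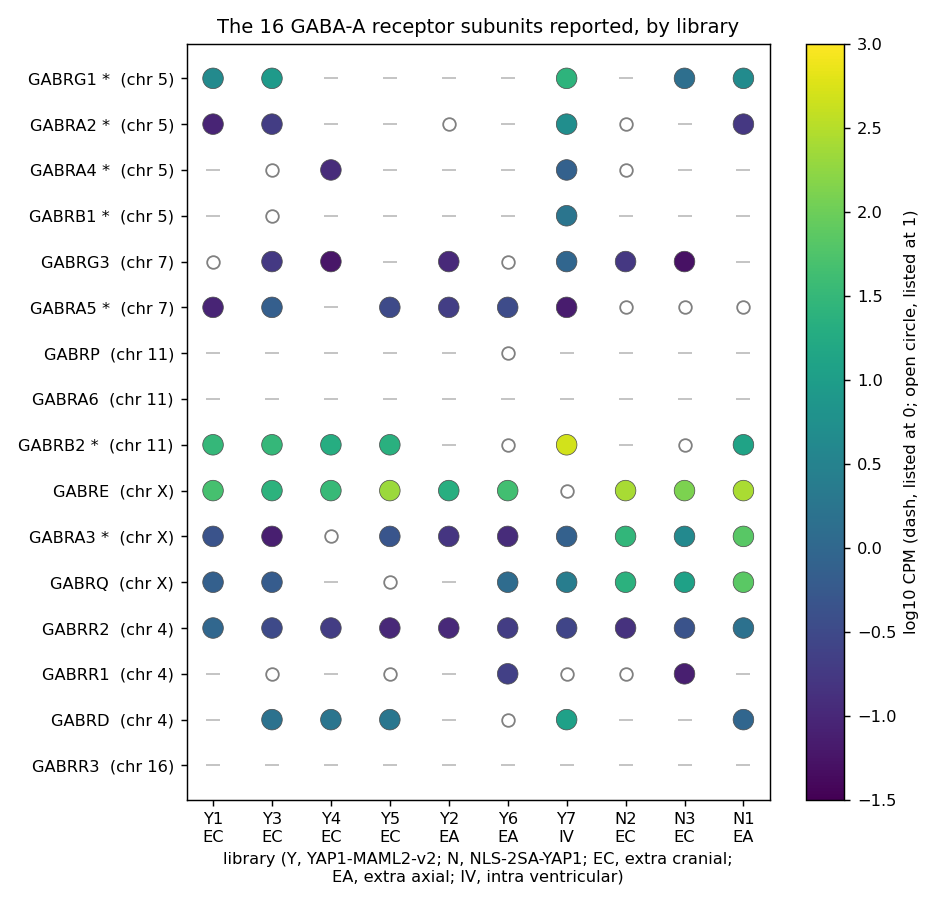
Level of each of the 16 GABA-A subunits reported here (rows, with the 7 followed genes starred and the chromosome in brackets) in each library (columns). Color is log10 CPM, a dash is a value of 0 and an open circle a value of 1, and GABRA6 and GABRR3 are at 0 in all 10 libraries.

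**Figure D2:**
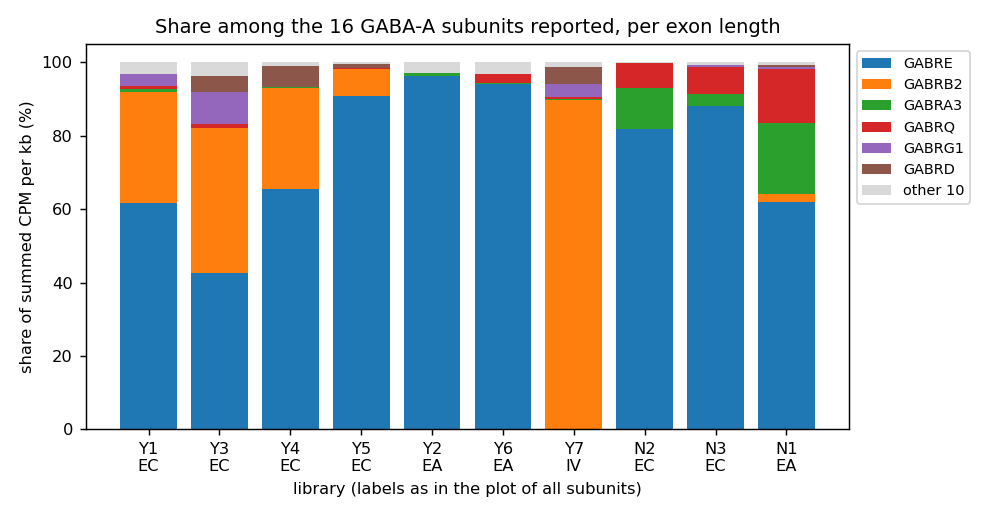
Share of each subunit in the summed CPM per kb of exon of the 16 subunits reported here (vertical axis, percent) in each library. GABRE takes the largest share in 9 libraries and GABRB2, with 89.7%, in YAP1-MAML2-v2 replicate 7.

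GABRA3, the alpha-3 subunit, was higher in each NLS-2SA-YAP1 tumor than in any YAP1-MAML2-v2 tumor, where it did not exceed 0.758 CPM. Replicates 1, 2 and 3 of NLS-2SA-YAP1 had 67.8, 28.7 and 4.17 CPM. In YAP1-MAML2-v2 tumors the lowest value was 0.0284 CPM (a deposited value of 1, replicate 4), the median 0.157 CPM and the highest 0.758 CPM, in replicate 7. The groups did not overlap, and the NLS-2SA-YAP1 libraries themselves spanned more than a factor of 10. Mean levels were 33.6 ± 32.1 CPM (SD, n = 3) for NLS-2SA-YAP1 and 0.296 ± 0.273 CPM (SD, n = 7) for the fusion. By region the same order was seen in extra cranial and extra axial tumors, the latter with 1 NLS-2SA-YAP1 library, and the intra ventricular region has none. Among extra cranial tumors the levels were 28.7 and 4.17 CPM against 0.0284 to 0.495 CPM, and among extra axial tumors 67.8 CPM against 0.157 and 0.112 CPM. The fitted log2 fold change, NLS-2SA-YAP1 minus YAP1-MAML2-v2 with region as a term, was 7.09 (SE 1.09). Leaving out replicate 1 of NLS-2SA-YAP1 gave 5.95 and leaving out its replicate 3 gave 7.89. Of all 13707 genes tested, 3.71% had NLS-2SA-YAP1 libraries all above the others, 3.03% all below and 6.73% either, and since GABRA3 was picked for this pattern nothing is read from its place among them.

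Gabra3 lies on chromosome X at 72432681 to 72656848 (mm10), 157.9 kb from Gabre (72255999 to 72274803) and 168.3 kb from Gabrq (72825178 to 72842602). Neither neighbor was used to pick GABRA3. GABRQ, the theta subunit, had 71.1, 23.6 and 11.9 CPM in the NLS-2SA-YAP1 tumors, in replicate order. In YAP1-MAML2-v2 tumors it was listed at 0 in replicates 2 and 4 and at 1 in replicate 5, with a median of 0.607 CPM and a highest value of 2.46 CPM in replicate 7. The constructs did not overlap, as in 3.71% of all genes in this direction. Within the NLS-2SA-YAP1 tumors GABRQ had the same order as GABRA3, as did GABRE. With so few libraries nothing is read from this order. With 3 YAP1-MAML2-v2 libraries at 0 or 1, the size of the GABRQ fold is not clear. The fitted GABRQ difference was 6.13 on the log2 scale (SE 1.41) and did not pass edgeR's quasi-likelihood test (Benjamini-Hochberg adjusted p = 0.167 over all genes). That p ran from 0.000157 with DESeq2 to 0.515 without NLS-2SA-YAP1 replicate 2. It was below 0.05 in 3 of 23 alternatives, namely DESeq2, limma-voom with sample quality weights (0.0363) and limma on log2 CPM with a prior count of 10 (0.045).

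GABRE, the epsilon subunit, had 264, 254 and 129 CPM in the NLS-2SA-YAP1 tumors, in replicate order. YAP1-MAML2-v2 tumors ran from a deposited value of 1 in replicate 7 (0.0237 CPM) over a median of 33.7 CPM to 207 CPM in replicate 5. The groups overlapped through replicate 5 alone, which lay between NLS-2SA-YAP1 replicates 2 and 3. The fitted log2 difference was 1.94 (SE 0.71), with an edgeR adjusted p of 0.304. Leaving out YAP1-MAML2-v2 replicate 5 gave 2.66, with an edgeR adjusted p of 0.102. Leaving out NLS-2SA-YAP1 replicate 1 gave 1.28, with an edgeR adjusted p of 0.627, and over the alternatives that gave an adjusted p the lowest was 0.0922, while DESeq2 gave none. Per exon length the 3 subunits stood at 55.7 (GABRE), 17.3 (GABRA3) and 13.3 (GABRQ) CPM per kb in NLS-2SA-YAP1 replicate 1.

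**Figure D3:**
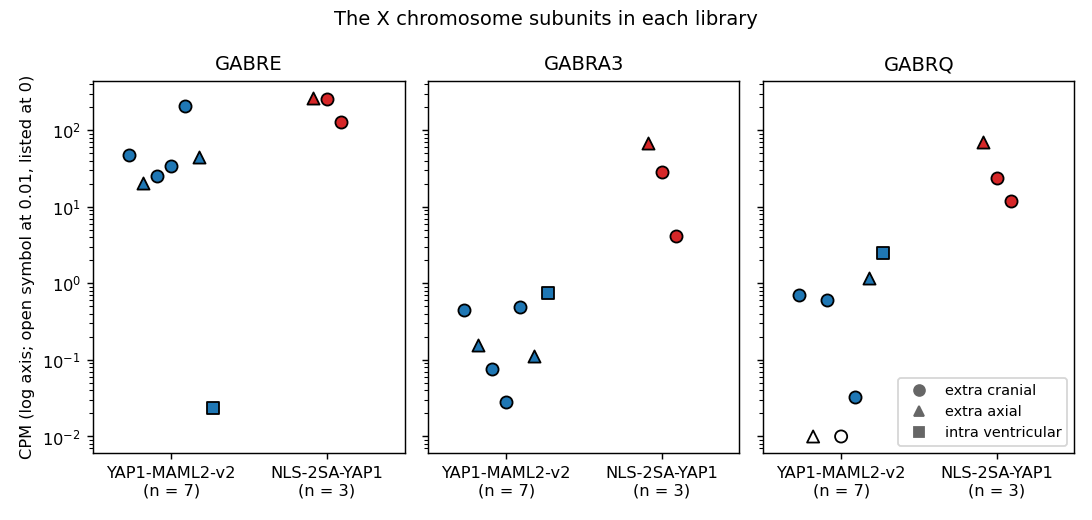
CPM on a log axis of the 3 X chromosome subunits in each library, by construct, with the symbol giving the region and each point 1 library. GABRA3 and GABRQ do not overlap between constructs, while in GABRE 1 extra cranial YAP1-MAML2-v2 library reaches 207 CPM.

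Genes around the cluster are given as a description, in a window chosen after the values had been seen. Of 29 protein-coding genes within 500 kb of the cluster's ends, 13 had a matching symbol in the files, and 10 of these were not GABA-A subunits. Only 5 of the 10 passed the filter on low values (VMA21, PRRG3, CETN2, NSDHL and PNMA3), and in 0 of the 5 were the constructs apart, as they were in 6.73% of all genes, so nothing particular to these genes is read from it. VMA21, an assembly factor of the vacuolar proton pump, had a log2 fold change of 1.09 (SE 0.34, edgeR adjusted p = 0.254). PRRG3, a membrane protein with a Gla domain, had 2.24 (SE 1.25, edgeR adjusted p = 0.48), with a lowest value of 1 among YAP1-MAML2-v2 libraries. PNMA3 had -0.12 (SE 2.15), with values of 0 in both constructs. The size of the PRRG3 and PNMA3 folds is therefore not clear. CETN2, a centriole protein, had 0.67 (SE 0.36) and NSDHL, an enzyme of cholesterol synthesis, 0.31 (SE 0.47). MAGEA10, listed between Gabre and Gabra3, was at 0 or 1 in every library.

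**Figure D4:**
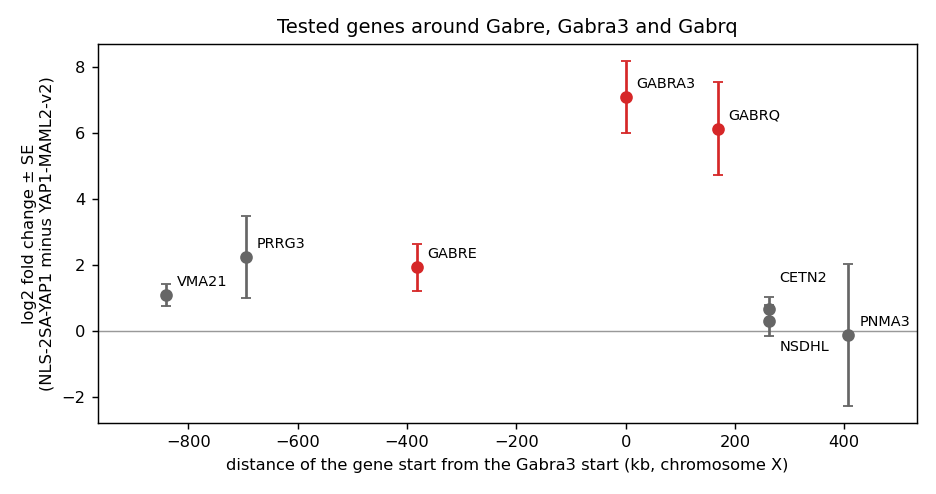
Log2 fold change between constructs (vertical axis, NLS-2SA-YAP1 minus YAP1-MAML2-v2, bars are SE) against the distance in kb of each gene's start from the Gabra3 start for the tested genes of the window. GABRA3, picked for this difference, is at 7.09 and GABRQ, with 3 libraries at 0 or 1, at 6.13. The 5 tested genes that are no subunits lie between -0.12 (PNMA3, SE 2.15) and 2.24 (PRRG3, SE 1.25), all as a description. PNMA3 has values of 0 with both constructs and PRRG3 a value of 1 with YAP1-MAML2-v2, so the size of these folds is not clear.

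GABRB2, the beta-2 subunit and part of the most common receptor of the adult brain, was either at 0 or 1 or well above it. It had the value 0 in replicate 2 of either construct, and the value 1 in YAP1-MAML2-v2 replicate 6 and in NLS-2SA-YAP1 replicate 3. No library had a value between 1 and 529. The extra cranial YAP1-MAML2-v2 replicates 1, 3, 4 and 5 had 31.2, 30.9, 19.1 and 22.5 CPM, and the extra axial NLS-2SA-YAP1 replicate 1 had 12.7 CPM. The intra ventricular YAP1-MAML2-v2 replicate 7 had 497 CPM, 15.9 times the next library. Region and construct thus crossed: the extra axial libraries were the low ones among YAP1-MAML2-v2 tumors and the high one among NLS-2SA-YAP1 tumors. No fold is given, because each construct and each of the extra axial and extra cranial regions held 2 libraries at 0 or 1. Gabrb2 lies on chromosome 11 at 42419757 to 42629028 (mm10).

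The chromosome 5 cluster, Gabrg1, Gabra2, Gabra4 and Gabrb1 between 70751047 and 72149037 (mm10), was highest in the intra ventricular tumor in 4 of 4 genes. GABRG1, the gamma-1 subunit, stood at 25.2 CPM in YAP1-MAML2-v2 replicate 7, 8.61 CPM in replicate 3 and 4.29 CPM in replicate 1. It had 4.43 CPM in NLS-2SA-YAP1 replicate 1 and 1.33 CPM in replicate 3, and was listed at 0 in the other 5 libraries, which came from both constructs and both outer regions. Its edgeR adjusted p was 0.927 between constructs and 1 between regions. GABRA2, the alpha-2 subunit, had 4.996 CPM in YAP1-MAML2-v2 replicate 7 and at most 0.202 CPM elsewhere. GABRA4, the alpha-4 subunit, had 0.758 CPM there and 0.113 CPM in replicate 4, and GABRB1, the beta-1 subunit, had 1.8 CPM there. In the other libraries GABRA4 and GABRB1 did not exceed a value of 1. GABRA2, GABRA4 and GABRB1 did not pass the filter on low values, so they were not tested. The 5' ends of Gabra4 and Gabrb1 overlap on opposite strands, from 71658113 to 71658308 (mm10). That is a small part of genes with exon lengths of 6.08 and 13.8 kb. No source used here gives the strand setting of the counting, so reads within that stretch cannot be told apart.

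**Figure D5:**
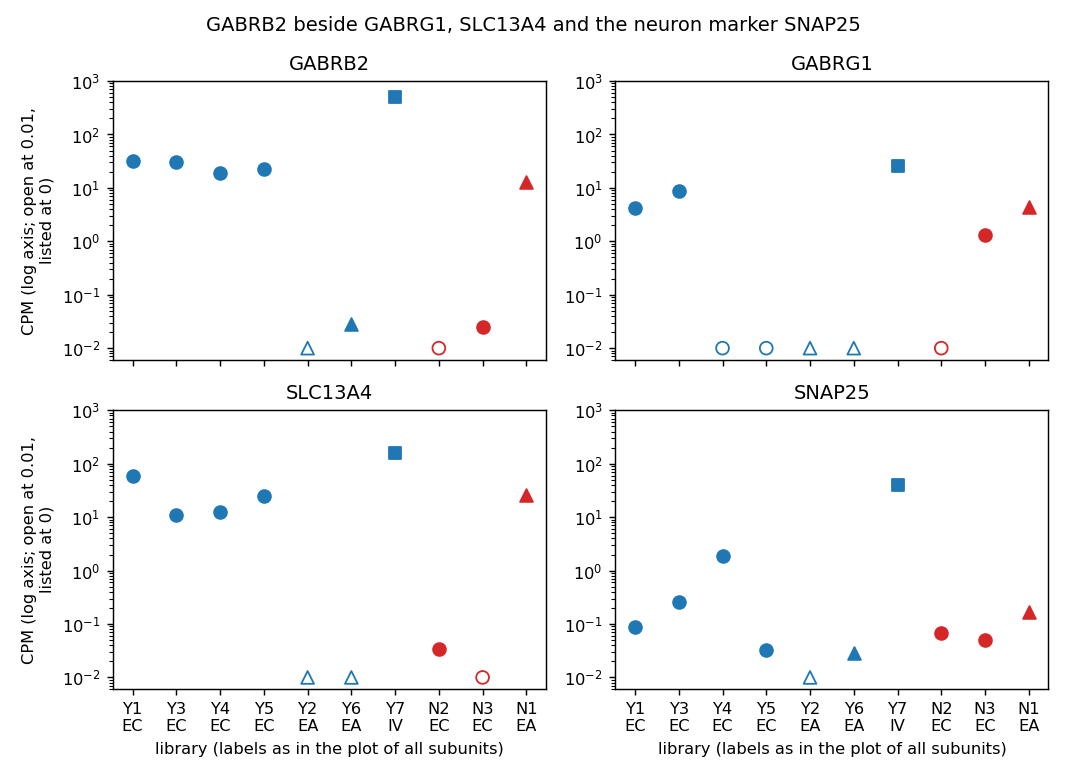
CPM on a log axis of GABRB2, GABRG1, the sulfate transporter SLC13A4 and the neuronal synapse gene SNAP25 in each library. Open symbols are values of 0 drawn at 0.01, color gives the construct and the symbol the region. All 4 genes are highest in the intra ventricular library, and GABRB2 and SLC13A4 are at 0 or 1 in the same 4 libraries.

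GABRA5 (chromosome 7, 57407672 to 57510059, mm10), the alpha-5 subunit known from hippocampal extrasynaptic receptors, stayed below 1 CPM in every library. It was listed at 1 in all 3 NLS-2SA-YAP1 tumors. In YAP1-MAML2-v2 tumors it ran from a value of 0 in replicate 4 over a median of 0.21 CPM to 0.709 CPM in replicate 3. The groups overlapped through replicate 4, and the edgeR adjusted p was 0.421 between constructs and 1 between regions.

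Among the remaining subunits, GABRD, the delta subunit of extrasynaptic receptors, had 11.3 CPM in YAP1-MAML2-v2 replicate 7 and at most 1.81 CPM elsewhere, with 5 libraries at 0 or 1. GABRR2 was low throughout, from 0.0989 to 1.51 CPM, with a log2 fold change between constructs of 1.07 (SE 1.33, edgeR adjusted p = 0.789). GABRG3, GABRP and GABRR1 did not pass the filter. In all, 0 of the 6 reported subunits tested besides GABRA3 and GABRB2 passed edgeR's test between constructs, against 0.0146% of all genes. At an unadjusted p under 0.05 there were 2, GABRQ and GABRE, both higher in NLS-2SA-YAP1 tumors. Over all genes 13.1% had such a p and 5.44% in this direction.

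Between extra axial (n = 3) and extra cranial (n = 6) tumors, with construct as a term, 0 of these 6 subunits passed edgeR's test, and 0% of all genes did. None of the 6 had an unadjusted p under 0.05, which 3.01% of all genes had (1.01% with the higher level in extra axial tumors). The regions overlapped in each of the 16 subunits, against 0.387% of all genes with extra axial libraries all above, 0.503% all below and 0.89% either. The log2 fold changes, extra axial minus extra cranial, were -0.62 (SE 0.76) for GABRE, 1.25 (SE 1.31) for GABRQ and 0.15 (SE 1.41) for GABRR2. Their edgeR adjusted p was 1 in each case. For GABRA3 the value was 0.36 (SE 1.10), and it turned to -0.95 without NLS-2SA-YAP1 replicate 1 and -0.25 without NLS-2SA-YAP1 replicate 3. DESeq2 called 31 genes between regions and 674 between constructs, where edgeR called 0 and 2.

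The intra ventricular tumor held the highest value of 7 of the 14 reported subunits with any value above 0, and of 5 of the 7 followed genes. Both counts include GABRB2, which was picked for its pattern, so they are a description. Over all genes with a value above 0, 21.5% were highest there. This region has 1 library, so there is no replicate check. Most listed markers of neurons, of astrocytes, and of macrophages and microglia were also highest in it. Of 13 neuron markers, 11 were highest in it and 13 of 13 were above a value of 1 there, against 5 to 12 in the other libraries. The synaptic vesicle fusion protein SNAP25 had 39.8 CPM there and at most 1.87 CPM elsewhere, and the neuronal nuclear marker RBFOX3 12.3 CPM and at most 0.48 CPM. Summed neuron marker CPM was 806 there against 401 to 1152 elsewhere, a sum whose largest single part there was the tubulin TUBB3 at 360 CPM. For TUBB3 this was the lowest level of the 10 libraries, which ran up to 1066 CPM. Of 7 astrocyte markers, 6 were highest there, with the filament protein GFAP at 1204 CPM and at most 39.9 CPM elsewhere. Of 6 macrophage and microglia markers, 5 were highest there, with a summed CPM of 1559 against 232 to 602 elsewhere. Of 9 oligodendrocyte lineage markers, 5 were highest there, and their sum of 371 CPM was also reached in NLS-2SA-YAP1 replicate 1. Markers of arachnoid and meningeal fibroblasts had their highest sum there as well (12470 CPM, against 7552 CPM in NLS-2SA-YAP1 replicate 3), with 2 of 11 markers highest. Each sum was mostly 1 gene, PTGDS in the intra ventricular tumor (8542 CPM) and SLC47A1 in NLS-2SA-YAP1 replicate 3 (5543 CPM). The part of all these cells in the subunit levels was not tested.

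Listed markers of arachnoid and meningeal fibroblasts were present in part, with 7 to 10 of 11 above a value of 1 in each library. FOXC1, ZIC1, ALDH1A2 and CDH1 were above it in every library. SLC47A1 was at 0 or 1 in 5 of 10 libraries, SLC22A6 in 9 and FOXD1 in 2. Their summed CPM was 1093 to 12470 with YAP1-MAML2-v2 and 2078 to 7552 with NLS-2SA-YAP1. PTGDS, the prostaglandin D synthase of arachnoid cells, had a value of 0 in replicate 5 of the fusion. Muscle markers differed among the NLS-2SA-YAP1 tumors, with summed CPM of 8.35, 109 and 434 in replicate order, against 7.96 to 110 with YAP1-MAML2-v2. In NLS-2SA-YAP1 replicate 1, 9 of 13 neuron markers were above a value of 1, with a summed CPM of 401, the lowest of all libraries. Among the NLS-2SA-YAP1 tumors, listed neuron markers went both ways in this library. The neurofilament NEFM (5.19 CPM, next 5.08) and the RNA-binding proteins ELAVL3 and ELAVL4 (2.03 and 1.60 CPM) were highest there. SNAP25 was also highest there, at 0.168 CPM. TUBB3 (378 CPM), MAP2 (5.79 CPM), SLC17A7 (0.239 CPM) and RBFOX3 (0.0239 CPM) were lowest there. SYT1, a synaptic calcium sensor, was listed at 0. Astrocyte markers summed to 1338, 556 and 341 CPM over the NLS-2SA-YAP1 replicates, against 178 to 733 CPM in the first 6 YAP1-MAML2-v2 replicates and 3142 CPM in replicate 7. Most of the sum in NLS-2SA-YAP1 replicate 1 was the connexin GJA1 (1174 CPM), while GFAP was 4.33 CPM, and the part of muscle, neurons and astrocytes in the GABRA3 level was not tested. Of 7 markers of choroid plexus and ependyma, 3 were tested and all 3 had a higher fitted level with NLS-2SA-YAP1, none past the adjusted threshold. Of these, FOLR1 and CLIC6 had values of 0, so the size of their folds is not clear. Sums over the 7 markers were 134, 228 and 437 CPM with NLS-2SA-YAP1. They were 26.3 to 127 CPM in YAP1-MAML2-v2 replicates 1 to 6 and 223 CPM in replicate 7. These sums were mostly the water channel AQP1 and the chloride channel CLIC6. TTR, the main secreted protein of choroid plexus, was listed at 0 in the 3 NLS-2SA-YAP1 tumors, and KCNJ13, a potassium channel of choroid plexus, did not exceed a value of 1 in any library. FOXJ1, a regulator of motile cilia that marks ependyma, had 1.92, 0.922 and 0.0754 CPM over the NLS-2SA-YAP1 replicates and at most 0.0786 CPM with YAP1-MAML2-v2. The part of these cells in the GABRA3 level was not tested either.

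Other genes of GABA signaling were listed by function. In either comparison 0 of them passed edgeR's test, which over all genes 0.0146% passed between constructs and 0% between regions, so the count is no result about these genes. The metabotropic receptor gene GABBR1 was well above 0 everywhere, with a mean of 106 ± 35.6 CPM (SD, n = 3) for NLS-2SA-YAP1 and of 94 ± 71.7 CPM (SD, n = 7) for the fusion. The fusion mean includes YAP1-MAML2-v2 replicate 7 (252.5 CPM), which adds nothing to the fitted contrast. That log2 fold change, NLS-2SA-YAP1 minus YAP1-MAML2-v2, was 0.62 (SE 0.32, edgeR adjusted p = 0.453). GAD1, a GABA-synthesizing enzyme, had 8.6 CPM in YAP1-MAML2-v2 replicate 7 and at most 0.55 CPM elsewhere, and the vesicular GABA transporter SLC32A1 was at 0 or 1 in 9 of 10 libraries. Of 5 uptake and breakdown genes, all tested, 2 had a positive and 3 a negative difference (NLS-2SA-YAP1 minus YAP1-MAML2-v2), with a median log2 fold change of -0.20. Values of 0 or 1 enter the folds of the uptake genes SLC6A11, SLC6A12 and SLC6A13. ABAT, the enzyme that breaks down GABA, had 170 CPM in replicate 7 and 10.3 to 66.9 CPM elsewhere.

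Of 16 anchoring and trafficking genes 15 were tested, 8 higher and 7 lower, with a median of 0.01. The synaptic scaffold gephyrin (GPHN) lay between 3.7 and 40.2 CPM and NLGN2, an adhesion protein of inhibitory synapses, between 47.1 and 177 CPM. All 8 chloride transport genes had a negative log2 fold change (NLS-2SA-YAP1 minus YAP1-MAML2-v2), from near 0 in the kinase STK39 (-0.01, SE 0.45), with a median of -0.69 against -0.03 over all genes tested, and 0 passed. The groups overlapped in each of the 8, against 6.73% of all genes with groups apart, and 1 had an unadjusted p under 0.05, against 13.1% of all genes. This was SLC12A7, a potassium chloride exporter, whose mean was 35.1 ± 16.4 CPM (SD, n = 3) with NLS-2SA-YAP1 and 74.1 ± 29.9 CPM (SD, n = 7) with the fusion (edgeR adjusted p = 0.28). SLC12A2, the importer that raises chloride in immature neurons, had 147 to 998 CPM, while SLC12A5, the exporter of mature neurons, had 18.2 CPM in replicate 7 and at most 1.72 CPM elsewhere. DBI, the endogenous peptide that acts at the benzodiazepine site of GABA-A receptors, had a mean of 109 ± 38.3 CPM (SD, n = 3) with NLS-2SA-YAP1 and 49.1 ± 24.2 CPM (SD, n = 7) with the fusion. The fitted difference on the log2 scale was 1.35 (SE 0.33, edgeR adjusted p = 0.183). The groups overlapped through YAP1-MAML2-v2 replicate 7 (90.9 CPM), which enters the mean but adds nothing to the fitted contrast. The glycine receptor genes, which encode the related chloride channels of brainstem and spinal cord, were low: of 5, only GLRB was tested, at 0 to 9.49 CPM.

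The pattern of GABRA3 over the 10 libraries was compared with that of every tested gene by Pearson correlation of log2 CPM, as a description. The 5 most similar genes were NDUFC1 (r = 0.98), a subunit of respiratory complex I, P2RY2 (0.96), a nucleotide receptor, HCFC1R1 (0.94), EDF1 (0.94) and PLEKHO1 (0.94). With 10 libraries and 13707 genes, high values of r are found for many genes, and 27 had r over 0.9 with GABRA3. NDUFC1 had 65.9, 50.5 and 40.9 CPM over the NLS-2SA-YAP1 replicates, and with the fusion 20.9 to 32.7 CPM. Among subunits, r with GABRA3 was 0.87 for GABRQ and 0.37 for GABRE, where the value of 1 in YAP1-MAML2-v2 replicate 7 enters. For GABRB2 the 5 were SLC13A4 (0.98), a sulfate transporter, GSPT2 (0.98), a translation termination factor, DDX25 (0.96), an RNA helicase, the cytokine IL1A (0.94) and the kisspeptin receptor KISS1R (0.91). SLC13A4 had 156 CPM in YAP1-MAML2-v2 replicate 7, 11 to 59.4 CPM in the extra cranial YAP1-MAML2-v2 tumors and 26.5 CPM in NLS-2SA-YAP1 replicate 1. Of 224 tested genes at 0 or 1 in exactly 4 libraries, 3 besides GABRB2 (SLC13A4, DDX25 and SHISA9) were so in the same 4 libraries. Among the subunits compared, r with GABRB2 was highest for GABRD (0.83). All points of such a correlation share the library scaling and the intra ventricular tumor.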

How the data were processed

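Tumor RNA was made into stranded mRNA libraries, per the labels' protocols. The deposited values are whole numbers for 16895 genes with human-style symbols. HTSeq and the mm10 build are named, per the submitters' processing notes, without versions. Aligner, annotation, strand setting, the step to human symbols and any later adjustment are likewise not given by any source used here. The values deposited by the authors were treated as estimated counts: where a gene's median exceeds 200, a 0 occurs 251 times, a 1 occurs 219 times and a 2 only 21 times. They are whole already and were not rounded.

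Genes were kept with filterByExpr by construct (minimum count 10, 13707 genes), scaled by TMM and tested with edgeR 4.0.16 (R 4.3.3), quasi-likelihood with robust dispersion, construct and region as terms, all 10 libraries, Benjamini-Hochberg over all genes, threshold 0.05. Having a region to itself, the intra ventricular tumor adds nothing to the contrasts. log2 CPM used a prior count of 2. Alternatives used limma 3.58.1 and DESeq2 1.42.0. The steps were tested on simulated counts. Positions and exon lengths are from GENCODE M21 (mm10). The genes and lists were chosen with earlier results of these data known. Named genes are the 7 subunits with the value in every library or their range, other reported subunits by counts and values, up to 4 examples per list (called members, then the highest), and the 5 genes most like GABRA3 and GABRB2. Some subunits and list members are not reported here and are left out of the list counts and shares, while they stay in the fit over all genes. Some examples in the lists were chosen after their values were seen.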

Additional observations from a re-analysis of the deposited data

Results flagged for a closer look

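Values of the 7 followed genes were compared within the YAP1-MAML2-v2 libraries and within the extra cranial libraries by the gap of the highest or lowest library to its nearest neighbor over the whole range. In 7 of 14 such groups the highest library stood apart. The cutoffs would set about 1 in 20 groups apart by chance if values were normally distributed. These CPM values were skewed, with 37 of 70 deposited values at 0 or 1, so that rate does not hold here. The groups also share libraries, and GABRA3 and GABRB2, with 1 case each, were picked for their pattern, so the count is a description. Of the 7 cases, 5 are the intra ventricular tumor. YAP1-MAML2-v2 replicate 7 stood apart from the other YAP1-MAML2-v2 libraries for GABRB2 (497 CPM, next 31.2), GABRG1 (25.2, next 8.61), GABRA2 (4.996 CPM, next 0.202), GABRB1 (1.8, next 0.0253) and GABRA4 (0.758, next 0.113). Among extra cranial libraries, NLS-2SA-YAP1 replicate 2 stood apart for GABRA3 (28.7 CPM, next 4.17, which is the other NLS-2SA-YAP1 library). YAP1-MAML2-v2 replicate 4 stood apart for GABRA4 at 0.113 CPM, a deposited value of 4.

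GABRB2 also went opposite ways between regions in the 2 constructs. The extra axial minus extra cranial difference of mean CPM was -25.9 among YAP1-MAML2-v2 libraries (n = 2 and n = 4) and 12.65 among NLS-2SA-YAP1 libraries (n = 1 and n = 2), with every library on its side. The difference between the constructs was not tested, since GABRB2 was picked for its pattern.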

How the results depend on the processing

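GABRA3 kept its direction between constructs in all 23 alternatives (log2 fold change 5.48 to 7.89), as did GABRQ (5.63 to 6.86) and GABRE (1.28 to 2.82). In 1 alternative the GABRA3 value moved by more than the pooled SD of its log2 CPM within constructs. GABRA3 was picked for this difference, and the constructs did not overlap in GABRA3 or GABRQ. Refits of the same libraries could hardly turn their sign, so the kept direction of these genes is a description and no check. The count of genes called between constructs, 2 in edgeR, was 674 with DESeq2, 95 with limma-voom and sample quality weights, 4 and 21 with limma on log2 CPM at prior counts of 2 and 10, 4 without a filter on low values and 4 in extra cranial libraries alone. Without 1 library it ranged from 0 (YAP1-MAML2-v2 replicates 2, 4 and 6, NLS-2SA-YAP1 replicates 2 and 3) to 2, and it was 0 without YAP1-MAML2-v2 replicates 6 and 7 together, an alternative added after seeing the data, as was setting values of 0 to 1 (2 genes). Between regions the count of 0 became 31 with DESeq2, ranged from 0 to 1 without 1 library (1 without YAP1-MAML2-v2 replicate 6 or NLS-2SA-YAP1 replicate 1) and was 1 without YAP1-MAML2-v2 replicates 6 and 7.

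With the replicate number as a replicate block on replicates 1 to 3, 2 genes were called, as many as without the block on the same 6 libraries. Same-numbered libraries did not deviate together in every pair (correlations 0.17, 0.34 and -0.07), and nothing in the labels pairs them.

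Signs turned for GABRR2 between constructs with limma-voom (-0.0399), in extra cranial libraries (-0.43) and without NLS-2SA-YAP1 replicate 1 (-0.43, the lowest without 1 library, the highest being 1.98). Between regions the following turned. GABRR2 was -0.0522 with limma-voom and -1.40, -0.55 and -0.23 without NLS-2SA-YAP1 replicate 1, 2 or 3 (highest without 1 library 0.97). GABRE ranged from -1.30 to 0.10 (without YAP1-MAML2-v2 replicate 5), and GABRA3 was -0.95 and -0.25 without NLS-2SA-YAP1 replicates 1 and 3 (highest 0.93). The cause was not tested. Values of 0 and 1 limit all low subunits, and no fold is given for GABRB2, GABRG1, GABRA5 and GABRD.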
